A study of Homo sapiens with 12 samples.

Results

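The mitochondrial ribosomal proteins were examined on arrays of HCT116 colorectal cancer cells in which the nuclear receptor LRH-1 was targeted with siRNA. Members were taken by symbol, as every gene whose name on the array platform starts with MRPL or MRPS and a digit, and each gene was represented by its brightest probe, the one with the highest mean over all arrays. This gave 78 of the 7452 genes with a symbol, measured by 108 probes. Of these genes, 76 encode proteins, 48 with a large subunit (MRPL) and 28 with a small subunit (MRPS) symbol. The other 2, the antisense RNA MRPL20-AS1 and the pseudogene MRPL42P5, match the rule by symbol but encode no protein, and were kept out of the counts.

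Mitochondrial ribosomes translate the few messages of the mitochondrial genome, which encode core subunits of the respiratory chain and ATP synthase. All of their proteins are encoded in the nucleus, made in the cytosol and imported, and they join mitochondrially encoded rRNA in a small subunit, which decodes the mRNA, and a large subunit, which forms the peptide bond. Many have a bacterial counterpart and others are found only in mitochondria. LRH-1, encoded by NR5A2, is a transcription factor of the gut, liver and pancreas.

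The study compared 3 groups of 4 Illumina HumanHT-12 v4 arrays to find genes regulated by LRH-1. HCT116 cells, grown in McCoy's 5A medium with serum, were reverse transfected for 24 h with 5 nM of siLUC, a control siRNA against luciferase, of siLRH-1 #1 or of siLRH-1 #2, a pair of independent siRNAs against LRH-1. Per the methods the replicates were 4 independent biological samples a group, all of this single cell line. The NR5A2 transcript was not analysed here, and no measure of the knockdown is given. Both siRNA groups were set against the same siLUC arrays, and the 2 comparisons are therefore not independent of each other.

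The 12 arrays had medians of log2 intensity between 6.49 and 6.5, and the lowest correlation within a group was 0.996. Replicate 2 of siLRH-1 #1 stood furthest apart, with a loading of 0.78 on a first component that held 13.8% of the variance within groups. The arrays also fell into a set of 7 and a set of 5, a division that the sample titles do not name. What it stands for was not tested. Between the sets 110 of 16381 probes and 0 probes of this family differed in limma, with the groups in the model. The set of 5 held siLUC replicate 2, siLRH-1 #1 replicate 3 and siLRH-1 #2 replicates 2, 3 and 4. Each group was in both sets, but siLRH-1 #2 lay mostly in this set and the others mostly in the set of 7. The division is thus partly confounded with siLRH-1 #2. Of 13 epithelial markers 11 were measured, with mean log2 intensities from 5.96 to 12.54 and a median of 8.1. The 5 measured fibroblast markers ran from 5.97 to 7.78 and the 6 measured leukocyte markers from 6 to 7.95. Both of these lists had a median of 6.1. The dimmer epithelial markers thus overlapped the other lists, and no endothelial marker was measured. The values are from bulk RNA, in which fewer cells with a transcript and less of it per cell cannot be told apart.

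Probes of the family were bright. The median of the members' mean log2 intensities was 10.53 and 73 of 76 (96.1%) reached 8, compared with a median of 7.25 and 37.9% over 7450 genes. The spread between replicates was low, with a median SD of 0.079 for members and 0.091 for all genes. The brightest probes were those of MRPS12, a protein of the decoding centre, at 12.44 with siLUC, 12.37 after siLRH-1 #1 and 12.32 after siLRH-1 #2, of MRPL3 at 12.30, 12.29 and 12.35, and of MRPS21 at 12.12, 11.99 and 12. The dimmest were those of MRPS14 at 6.60, 6.63 and 6.36, of MRPS25 at 7.31, 7.19 and 7.20, and of MRPL28 at 7.41, 7.40 and 7.30. Probes differ in how well they hybridise, so these intensities do not rank the transcripts.

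Members moved in both directions, and most were not called. With siLRH-1 #1, 16 of 76 members (21.1%) passed an adjusted p of 0.05 in limma, 5 higher and 11 lower than siLUC. The share over all genes was 23.5% (11.2% higher and 12.3% lower), and 34.6% over genes with a mean log2 of at least 8, where 21.9% of the members of that brightness were called. With siLRH-1 #2, 6 members (7.89%) passed, 1 higher and 5 lower, against 8.39% of all genes (4.42% higher and 3.97% lower) and 14.5% of the brighter ones, where the members stood at 6.85%. The count with siLRH-1 #2 was 0 without siLUC replicate 2 or without siLRH-1 #2 replicate 1, when 4.79% and 4.43% of all genes were called. It was 3 without siLUC replicate 3, siLUC replicate 4 or siLRH-1 #2 replicate 2, when 7.15%, 7.13% and 7.37% were. In both comparisons the members' share lay near that of all genes and below that of genes with a mean log2 of at least 8. Those genes were not matched to the members in brightness.

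The changes were small. With siLRH-1 #1, the 95% interval of the fold change stayed within 1.2-fold of siLUC in either direction for 52 of 76 members, within 1.3-fold for 67 and within 1.5-fold for 73. The exceptions at 1.5-fold were MRPL49, MRPL54 and MRPS18B. With siLRH-1 #2, 59 of 76 intervals stayed within 1.2-fold, 74 within 1.3-fold and all 76 within 1.5-fold. The middle 50% of the log2 fold changes ran from -0.10 to 0.07 with siLRH-1 #1 and from -0.11 to 0.04 with siLRH-1 #2, compared with -0.09 to 0.10 and -0.07 to 0.08 over all genes. The arrays were quantile-normalized, so a shift shared by most transcripts in the cell would not be seen.

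**Figure D1:**
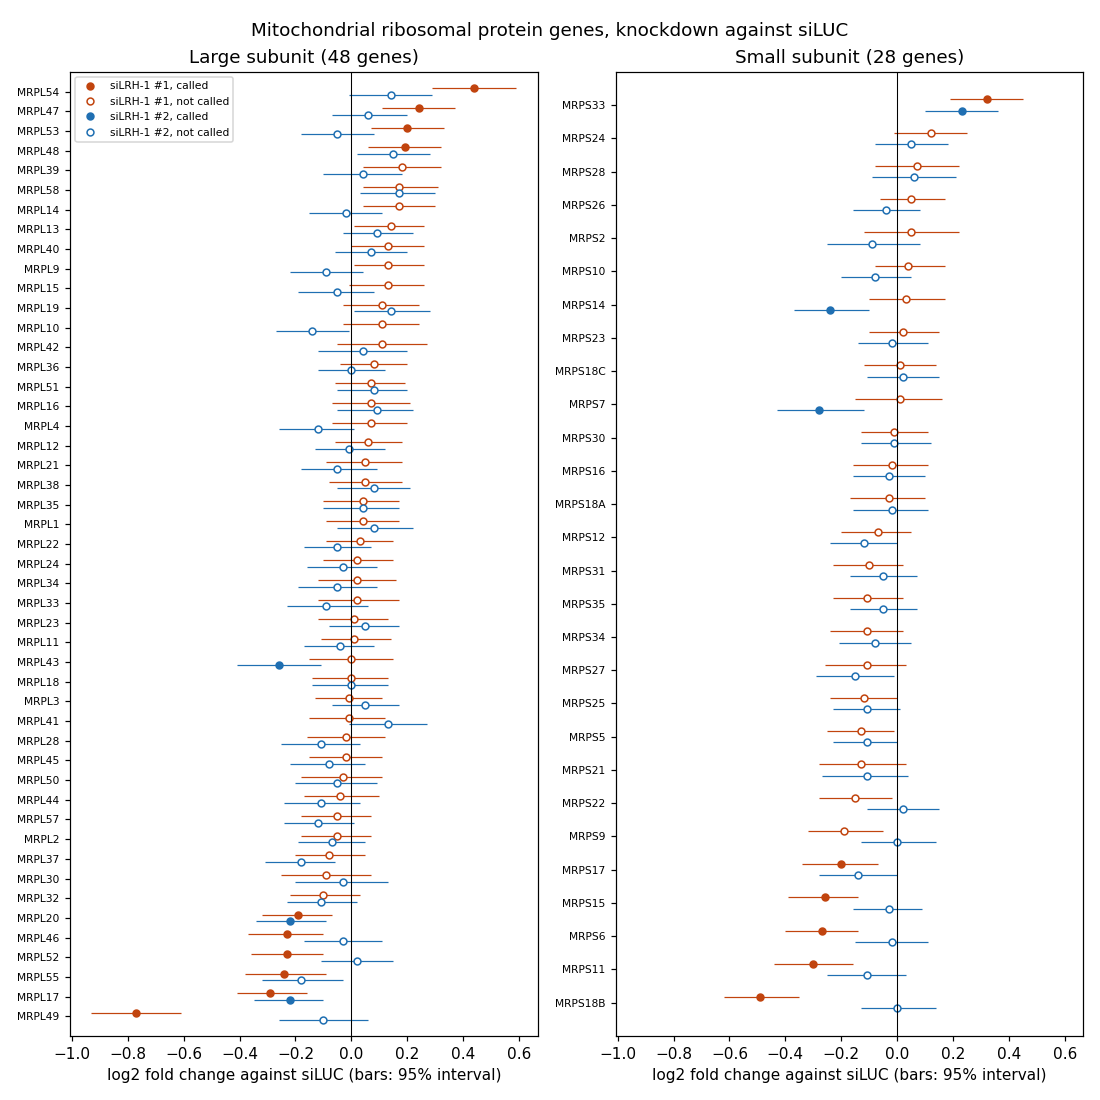
Log2 fold change of each of the 48 large and 28 small subunit genes against siLUC (points) with its 95% interval (bars), for siLRH-1 #1 and siLRH-1 #2, filled where the limma adjusted p was under 0.05. The middle 50% of the members lie between -0.10 and 0.07 with siLRH-1 #1, and MRPL49 at -0.77 and MRPS18B at -0.49 stand apart with siLRH-1 #1 alone.

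**Figure D2:**
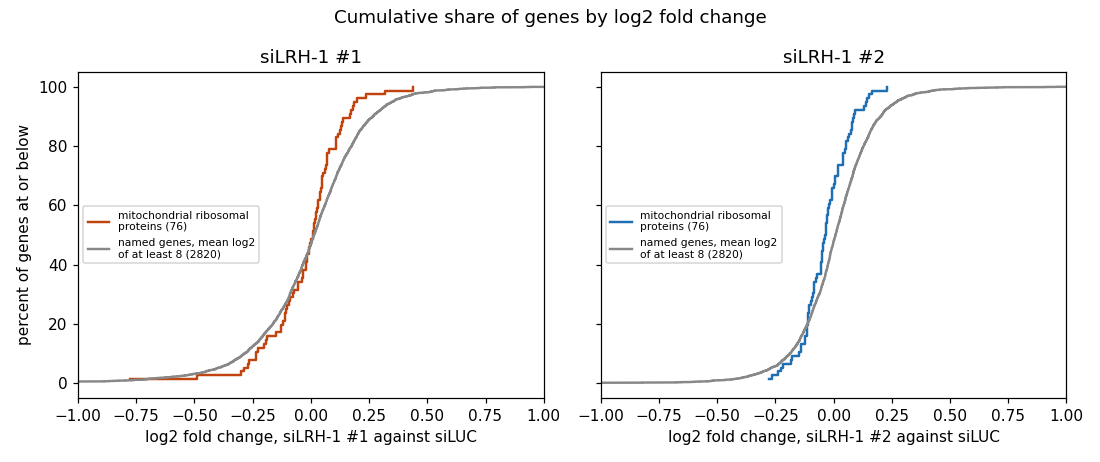
Percent of genes at or below each log2 fold change against siLUC, for the 76 mitochondrial ribosomal protein genes and the 2820 named genes with a mean log2 of at least 8. The family's curves are the steeper ones, and they run from -0.77 to 0.44 with siLRH-1 #1 and from -0.28 to 0.23 with siLRH-1 #2.

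Of 76 members, 3 passed with both siRNAs in the same direction, against 4.78% of all genes (2.85% higher and 1.93% lower) and 8.12% of the brighter ones. MRPL17 and MRPL20 were lower and MRPS33 was higher. The count of 3 became 0 without siLUC replicate 2 or siLRH-1 #2 replicate 1, and 1 without siLUC replicate 1, siLRH-1 #2 replicate 2 or siLRH-1 #2 replicate 3. The share of all genes called with both was not computed for these settings. The stretches just before the annotated starts of MRPL17, MRPL20 and MRPS33 are given because these genes are the ones shared by the siRNAs. They are from RefSeq on GRCh38.p14, read 5′ to 3′ on the gene's strand (minus for each), with capitals for motifs of the factor NRF1 in MRPL17 and of ETS factors such as GABP in MRPL20, while the stretch of MRPS33, taken before its outermost start, held none of the motifs searched.
MRPL17, chr11:6683341-6683460: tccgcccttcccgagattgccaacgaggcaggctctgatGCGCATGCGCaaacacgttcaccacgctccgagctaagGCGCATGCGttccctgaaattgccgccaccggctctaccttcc
MRPL20, chr1:1407294-1407413: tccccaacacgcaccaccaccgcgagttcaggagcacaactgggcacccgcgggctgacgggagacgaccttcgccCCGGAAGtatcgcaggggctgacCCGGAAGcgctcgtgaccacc
MRPS33, chr7:141014953-141015072: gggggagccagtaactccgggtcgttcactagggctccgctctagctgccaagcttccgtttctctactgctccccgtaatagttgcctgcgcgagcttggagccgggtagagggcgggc

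MRPL17 is a large subunit protein with a bacterial counterpart. Its log2 intensity was 11.10, 11.05, 11.05 and 11.06 with siLUC, 10.84, 10.79, 10.81 and 10.67 after siLRH-1 #1 and 10.75, 10.89, 10.90 and 10.82 after siLRH-1 #2. All 8 knockdown arrays were below all 4 control arrays. It fell by 0.29 (SE 0.060, adjusted p = 0.00119) with siLRH-1 #1 and by 0.22 (SE 0.060, adjusted p = 0.0252) with siLRH-1 #2 on the log2 scale, which is 0.819-fold and 0.856-fold of siLUC. In the siLRH-1 #2 comparison the call did not hold without siLUC replicate 1 or 2, or without siLRH-1 #2 replicate 1 or 4, with adjusted p between 0.0544 and 0.127.

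MRPL20 is the counterpart of a bacterial protein that acts early in the assembly of the large subunit. Its log2 intensity was 10.68, 10.65, 10.70 and 10.58 with siLUC, 10.47, 10.45, 10.55 and 10.37 after siLRH-1 #1 and 10.35, 10.46, 10.46 and 10.48 after siLRH-1 #2. The groups did not overlap, although the highest knockdown array was close to the lowest control. It fell by 0.19 (adjusted p = 0.0285) and by 0.22 (adjusted p = 0.033), both with an SE of 0.060. Both calls were near the threshold: without siLUC replicate 1, 2 or 3 neither held, and each was lost without 3 of its own 4 siRNA arrays. A second probe of MRPL20, at a mean log2 of 10.37, gave -0.07 and -0.14 and was not called. The antisense RNA MRPL20-AS1 was 9.46, 9.46, 9.39 and 9.45 with siLUC, 9.21, 9.16, 9.20 and 9.20 after siLRH-1 #1 and 9.30, 9.24, 9.39 and 9.24 after siLRH-1 #2. It fell by 0.25 (adjusted p = 0.0031) with siLRH-1 #1, and its difference of -0.15 (adjusted p = 0.148) with siLRH-1 #2 did not pass.

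MRPS33 is a mitochondrion-specific protein of the small subunit head, and its 2 probes went in opposite directions. The brighter one read 10.43, 10.27, 10.35 and 10.17 with siLUC, 10.65, 10.68, 10.59 and 10.58 after siLRH-1 #1 and 10.56, 10.55, 10.58 and 10.45 after siLRH-1 #2. It rose by 0.32 (SE 0.064, adjusted p = 8.05e-04) and by 0.23 (SE 0.064, adjusted p = 0.0332), and all knockdown arrays were above all controls. The dimmer one read 8.52, 8.48, 8.44 and 8.29 with siLUC, 8.04, 8.08, 8.06 and 8.06 after siLRH-1 #1 and 8.33, 8.23, 8.29 and 8.18 after siLRH-1 #2. It fell by 0.37 (adjusted p = 9.81e-05) with siLRH-1 #1, without overlap, and gave -0.17 (adjusted p = 0.105) with siLRH-1 #2. Both probes carry the same RefSeq transcript in the platform annotation, so the direction for MRPS33 depends on the probe. For the brighter probe, the siLRH-1 #2 call did not hold when siLUC replicate 2 or 4 or siLRH-1 #2 replicate 1, 2 or 3 was left out, with adjusted p between 0.0728 and 0.118.

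**Figure D3:**
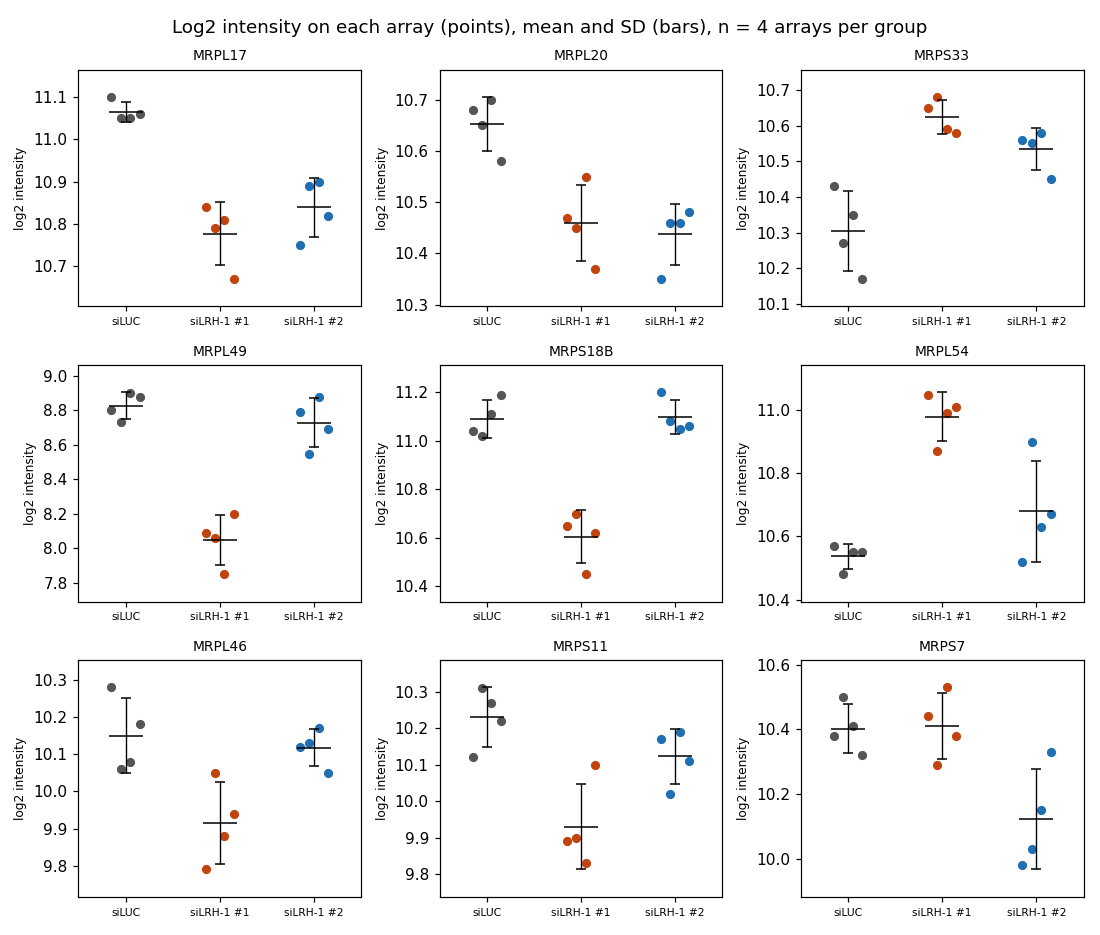
Log2 intensity of 9 members on each of the 12 arrays (points) with the mean and SD of each group of 4 (bars). MRPL17 and MRPL20 were lower and MRPS33 higher on all 8 knockdown arrays, and MRPL49 and MRPS18B were low with siLRH-1 #1 alone.

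Among the other large subunit genes called with siLRH-1 #1, the largest change was that of MRPL49, a mitochondrion-specific protein. Its log2 intensity was 8.80, 8.73, 8.90 and 8.88 with siLUC, 8.09, 8.06, 7.85 and 8.20 after siLRH-1 #1 and 8.79, 8.55, 8.88 and 8.69 after siLRH-1 #2. The siLRH-1 #1 arrays lay far below both other groups, which overlapped. It fell by 0.77 (SE 0.077, adjusted p = 9.41e-08), to 0.585-fold of siLUC, and the difference of -0.10 with siLRH-1 #2 was not called (95% interval -0.26 to 0.06). MRPL49 was also lower with siLRH-1 #1 than with siLRH-1 #2, by 0.68 (adjusted p = 1.63e-06).

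MRPL54, another mitochondrion-specific protein, went the other way. It read 10.57, 10.48, 10.55 and 10.55 with siLUC, 11.05, 10.87, 10.99 and 11.01 after siLRH-1 #1 and 10.52, 10.90, 10.63 and 10.67 after siLRH-1 #2. It rose by 0.44 (SE 0.071, adjusted p = 7.47e-05) with siLRH-1 #1, 1.36-fold of siLUC, and was not called with siLRH-1 #2 at 0.14 (adjusted p = 0.313), where replicate 2 was above the lowest array of siLRH-1 #1 and replicate 1 lay among the controls.

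The other large subunit rises with siLRH-1 #1 were small. They were MRPL47, the tunnel exit protein, by 0.24 (adjusted p = 0.0102), MRPL53 by 0.20 (adjusted p = 0.031) and MRPL48, of the central protuberance, by 0.19 (adjusted p = 0.0425). The falls were MRPL55 by 0.24 (adjusted p = 0.0202), MRPL46, also of the central protuberance, by 0.23 (adjusted p = 0.0159) and MRPL52 by 0.23 (adjusted p = 0.0125). The next brightest probe of MRPL55 fell by 0.22 (adjusted p = 0.014), a dim further probe, at 5.96, gave 0.05, and the second probe of MRPL47 gave 0.21 without a call. With siLRH-1 #2 the large subunit had 1 further call, MRPL43, which fell by 0.26 (adjusted p = 0.029). MRPL43 read 11.02, 11.21, 10.95 and 11.04 with siLUC and 10.57, 10.89, 10.84 and 10.87 with siLRH-1 #2, so its lowest value came from replicate 1. Its second probe fell by 0.37 (adjusted p = 0.0102), and a dim further probe, at 6.42, gave 0.03.

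In the small subunit, MRPS18B changed most. It is 1 of the mitochondrial relatives of a single bacterial protein of the subunit platform. Its log2 intensity was 11.04, 11.02, 11.11 and 11.19 with siLUC, 10.65, 10.70, 10.45 and 10.62 after siLRH-1 #1 and 11.20, 11.08, 11.05 and 11.06 after siLRH-1 #2. It fell by 0.49 (SE 0.066, adjusted p = 7.29e-06) with siLRH-1 #1, 0.714-fold of siLUC, and the difference with siLRH-1 #2 was 0.00 (95% interval -0.13 to 0.14). The second probe, at a mean of 8.49, gave the same picture, a fall of 0.46 (adjusted p = 2.1e-05) and 0.00.

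MRPS11, a platform protein with a bacterial counterpart, read 10.12, 10.31, 10.27 and 10.22 with siLUC and 9.89, 9.90, 9.83 and 10.10 with siLRH-1 #1. It fell by 0.30 (adjusted p = 0.00255), and its second probe by 0.36 (adjusted p = 4.45e-04). The other falls with siLRH-1 #1 were in MRPS6 by 0.27 (adjusted p = 0.00355), MRPS15 by 0.26 (adjusted p = 0.00285) and MRPS17 by 0.20 (adjusted p = 0.0351), which all have bacterial counterparts. Leaving out single arrays, 10 of the 16 calls with siLRH-1 #1 held each time, and MRPL20, MRPL46, MRPL48, MRPL53, MRPL55 and MRPS17 were lost at least once.

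With siLRH-1 #2 the small subunit had 2 calls of its own. MRPS7, which organises the rRNA of the subunit head, read 10.38, 10.50, 10.41 and 10.32 with siLUC, 10.44, 10.29, 10.53 and 10.38 after siLRH-1 #1 and 9.98, 10.03, 10.15 and 10.33 after siLRH-1 #2. It fell by 0.28 (SE 0.074, adjusted p = 0.0263), although replicate 4 of siLRH-1 #2 was within the control range. MRPS14, also of the head, was dim, at 6.53, 6.69, 6.59 and 6.58 with siLUC, 6.58, 6.60, 6.72 and 6.62 after siLRH-1 #1 and 6.21, 6.48, 6.38 and 6.37 after siLRH-1 #2. It fell by 0.24 (SE 0.065, adjusted p = 0.0293), with no overlap.

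The siRNAs were then set against each other. Of 76 members, 14 (18.4%) differed, 8 higher and 6 lower with siLRH-1 #1, against 18.1% of all genes (8.17% higher and 9.89% lower) and 28.2% of the brighter ones. The 3 largest positive differences were MRPL54 at 0.30 (adjusted p = 0.00504), MRPS7 at 0.28 (adjusted p = 0.0115) and MRPS14 at 0.27 (adjusted p = 0.00597). The 3 largest negative ones were MRPL49, MRPS18B at -0.49 (adjusted p = 1.22e-05) and MRPS6 at -0.25 (adjusted p = 0.00953). MRPS6 read 11.62, 11.48, 11.53 and 11.40 with siLUC, 11.21, 11.30, 11.21 and 11.22 after siLRH-1 #1 and 11.59, 11.49, 11.38 and 11.48 after siLRH-1 #2, so the siLRH-1 #1 arrays alone were low.

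The smaller differences between the siRNAs included MRPL9, MRPL10 and MRPL14, which were called in neither comparison with siLUC. MRPL10, at the base of the stalk that recruits translation factors, was higher with siLRH-1 #1 than with siLRH-1 #2 by 0.25 (adjusted p = 0.0114), MRPL9 by 0.23 (adjusted p = 0.0153) and MRPL14, of the subunit interface, by 0.19 (adjusted p = 0.0432). MRPL43 and MRPL53 were also higher with siLRH-1 #1, by 0.26 (adjusted p = 0.0158) and 0.25 (adjusted p = 0.00915). MRPL52 was lower by 0.25 (adjusted p = 0.00957), MRPS15 by 0.23 (adjusted p = 0.0118) and MRPL46 by 0.20 (adjusted p = 0.0464). Leaving out siLRH-1 #2 replicate 1 brought the count of 14 to 5 (6.58%), when 11.6% of all genes were called, and leaving out siLRH-1 #1 replicate 3 brought it to 9 (11.8%), when 11.7% were.

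The subunits were also described apart. The large subunit had 10 of 48 members (20.8%) called with siLRH-1 #1, 4 higher and 6 lower, and 3 (6.25%) with siLRH-1 #2, all lower. The small subunit had 6 of 28 (21.4%) called with siLRH-1 #1, 1 higher and 5 lower, and 3 (10.7%) with siLRH-1 #2, 1 higher and 2 lower. Over all genes the shares were 23.5% and 8.39%. MRPS30 and MRPS18A carry small subunit symbols but their proteins sit in the large subunit, and moving them changed none of these counts. The small subunit's median log2 fold change against siLUC came to -0.09 after siLRH-1 #1 and -0.04 after siLRH-1 #2, the large subunit's 0.03 and -0.03, and that of all genes 0.01 and 0.00. The members were brighter than most genes, and no median of genes of like brightness is given beside these.

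Array by array, the median difference of the small subunit genes from their siLUC mean was -0.01, 0.031, 0.001 and 0.001 with siLUC. It came to -0.056, -0.081, -0.059 and -0.079 after siLRH-1 #1 and -0.05, -0.064, -0.06 and -0.038 with siLRH-1 #2, so that each knockdown array was below each control array. For the large subunit it was 0.016, 0, -0.007 and 0.006 with siLUC, 0.05, 0.024, 0.027 and 0.017 after siLRH-1 #1 and -0.046, -0.045, 0.007 and -0.021 after siLRH-1 #2. Here siLRH-1 #1 lay above the controls and siLRH-1 #2 overlapped them. After cyclic loess or centring on array medians the small subunit kept this order, from -0.093 to -0.038 over the knockdown arrays against -0.012 to 0.03 over the controls, while the large subunit with siLRH-1 #1 overlapped the controls after loess. With the mean of a gene's probes in place of the brightest probe, the small subunit's median fold change on the log2 scale came to -0.044 (siLRH-1 #1) and -0.045 (siLRH-1 #2), where the brightest probes gave -0.088 and -0.045, and the large subunit's came to 0.013 and -0.029. The shifts share the siLUC arrays, were not set against genes of like brightness, and no test was made of them.

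**Figure D4:**
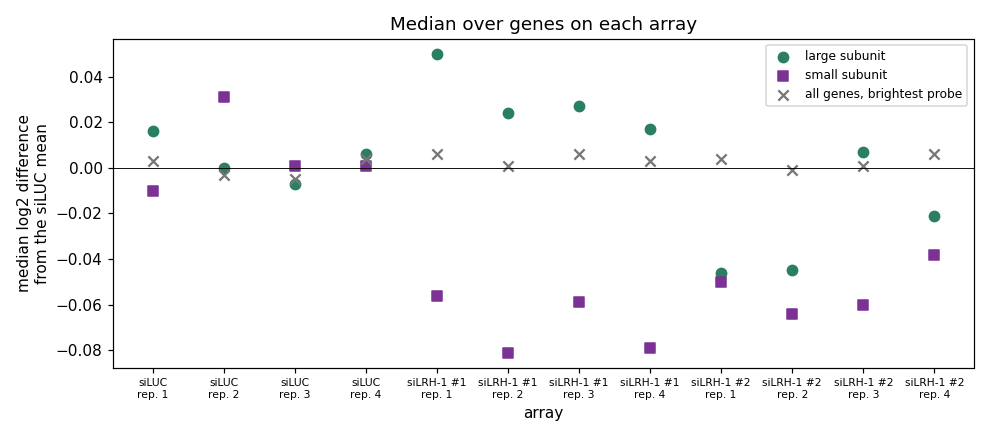
Median over the 48 large and 28 small subunit genes, and over all 7450 genes, of the log2 difference from the siLUC mean on each of the 12 arrays. The small subunit medians of the 8 knockdown arrays lie between -0.081 and -0.038, below the 4 control arrays.

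Calls were also counted by position within the ribosome and by bacterial counterpart, beside 23.5% of all genes called with siLRH-1 #1 (11.2% higher and 12.3% lower) and 8.39% with siLRH-1 #2. The groups are small and their counts are given as a description. Of the 3 stalk proteins, MRPL10, MRPL11 and MRPL12, 0 were called against siLUC (at an unadjusted p under 0.05, 0 for siLRH-1 #1 and 1 for siLRH-1 #2). Of 7 proteins around the exit tunnel 1, MRPL47, was called with siLRH-1 #1 and 0 with siLRH-1 #2. The 5 measured proteins of the central protuberance gave 1 rise (MRPL48) and 1 fall (MRPL46) with siLRH-1 #1 and 0 calls with siLRH-1 #2. At an unadjusted p under 0.05, siLRH-1 #2 gave 0 around the tunnel and 1 in the protuberance. In the mRNA channel and decoding region, 1 of 8, MRPS11, was called with siLRH-1 #1 and 1, MRPS7, with siLRH-1 #2, and the region's median was -0.09 and -0.11. Of 45 members counted with a bacterial counterpart, 1 was higher and 7 were lower with siLRH-1 #1. Of the other 31, 4 were higher and 4 lower. These 31 are mitochondrion-specific or have a disputed counterpart, and MRPS18B, a relative of a bacterial protein, is among them. With siLRH-1 #2 these groups had 4 and 2 calls.

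A second probe changed the account of several genes. In all, 24 members had more than 1 probe. Of these, 6 were called with siLRH-1 #1 on the brightest probe and 4 of the 6 on a dimmer probe as well, MRPS33 among them in the opposite direction, and 4 further genes were called on a dimmer probe alone. The clearest was MRPS21, whose brightest probe, at a mean of 12.04, gave -0.13 (adjusted p = 0.298) and -0.11 (adjusted p = 0.49). Its dimmer probe read 9.10, 9.26, 9.19 and 9.14 with siLUC, 8.90, 8.75, 9.04 and 8.85 after siLRH-1 #1 and 8.78, 8.85, 8.87 and 8.79 after siLRH-1 #2. This probe fell by 0.29 (adjusted p = 0.00278) and by 0.35 (adjusted p = 0.00143), and the knockdown arrays did not overlap the controls. The dim second probe of MRPL10, at 6.29, fell by 0.28 (adjusted p = 0.00374) with siLRH-1 #1, whereas its brightest probe gave 0.11.

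**Figure D5:**
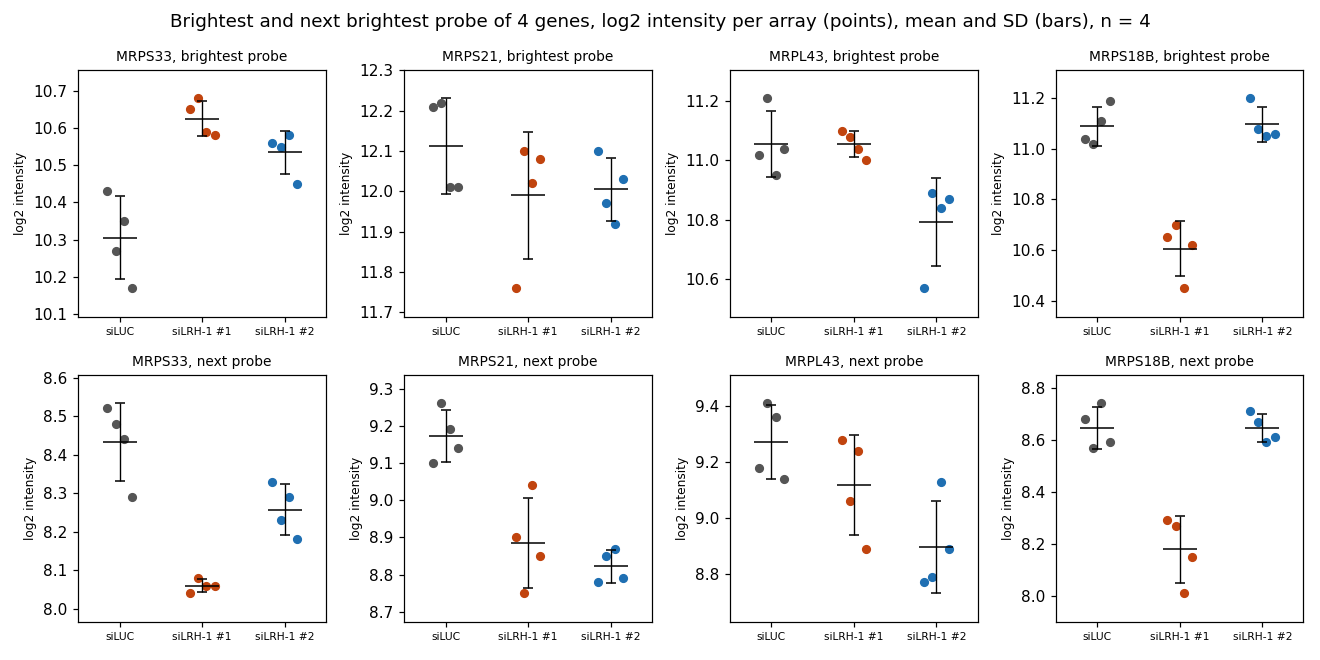
Log2 intensity on each array (points), with the mean and SD of each group of 4 (bars), for the brightest (top) and next brightest (bottom) probe of 4 genes. The 2 probes of MRPS18B fell alike with siLRH-1 #1, by 0.49 and 0.46, whereas those of MRPS33 moved in opposite directions, by 0.32 and -0.37.

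Several members start beside another gene read from the other strand, and 12 had such a neighbour, within 1000 bases, that was measured too. In 1 of the resulting 11 pairs both genes are members: MRPL46 and MRPS11 start 320 bases apart, 1 from each subunit, and both fell with siLRH-1 #1. The 250 bases before MRPS11 hold most of the stretch between them and are shown for that reason. It is on the plus strand of GRCh38.p14 and, as it held none of the motifs searched, is in lower case.
MRPS11, chr15:88467458-88467707: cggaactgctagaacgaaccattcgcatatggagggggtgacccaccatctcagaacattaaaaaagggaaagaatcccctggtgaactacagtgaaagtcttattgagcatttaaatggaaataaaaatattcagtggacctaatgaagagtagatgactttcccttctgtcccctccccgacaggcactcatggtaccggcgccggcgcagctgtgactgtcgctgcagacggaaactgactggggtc

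The remaining pairs with a called gene held no other member. FAU, which encodes a cytosolic ribosomal protein and starts 49 bases from MRPL49, gave -0.05 (adjusted p = 0.635) with siLRH-1 #1, where MRPL49 fell by 0.77. APBA3, an adaptor protein, starts 990 bases from MRPL54 and fell by 0.19 (adjusted p = 0.0391) where MRPL54 rose. GGA3, an adaptor of Golgi transport, starts 273 bases from MRPS7 and gave -0.05 (adjusted p = 0.75) with siLRH-1 #1 and a fall of 0.34 (adjusted p = 0.00422) with siLRH-1 #2. MRPS7 had 0.01 and a fall of 0.28 (adjusted p = 0.0263) in the same comparisons, so both genes of this pair fell with siLRH-1 #2. MITD1 fell by 0.69 (adjusted p = 2.24e-06) with siLRH-1 #1 beside MRPL30 at -0.09, which was not called. PIERCE1, 96 bases from MRPS2, fell by 0.41 (adjusted p = 2.14e-05) and by 0.28 (adjusted p = 0.00454), where MRPS2 gave 0.05 and -0.09 without a call. CYB5RL, 137 bases from MRPL37, fell by 0.26 (adjusted p = 0.00612) with siLRH-1 #1, where MRPL37 gave -0.08 without a call. Of the 11 pairs, 3 held a called member and 5 a called neighbour with siLRH-1 #1, and 2 held both, when 23.5% of all genes were called.

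Promoters from 250 bases before to 50 after the start were available for 68 members and 27305 genes in all, and were searched on both strands. The LRH-1 element was searched as TCAAGGTCA, CCAAGGTCA, TCAAGGCCA or CCAAGGCCA. These were found in 2 members (2.94%), MRPL4 and MRPS2, and in 2.26% of all genes. The consensus that the study gives also allows G as the last base, and those spellings were not searched. The half-site AAGGTCA, which overlaps the first 2 spellings, was found in 4 (5.88%), MRPL34, MRPS21, MRPS22 and MRPS33, against 4.8%. The NRF1 motif CGCATGCGC was found in 3 (4.41%), MRPL17, MRPL22 and MRPS18C, against 2.34%. Motifs of general promoter factors were more frequent in the family: the ETS motif CCGGAAG in 29 members (42.6%) against 12.2% of genes, and the YY1 motif AAGATGGCG in 13 (19.1%) against 2.14%. The 27305 genes include non-coding genes and genes not named on these arrays, whereas the members are measured protein genes. A gene was counted when any of its starts matched. The shares are therefore not set against a like background. A match is a run of letters and no measure of binding.

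Genes that work with the mitoribosome were counted from lists chosen like the family. Of all genes, 23.5% passed after siLRH-1 #1 and 8.39% after siLRH-1 #2, and the lists are too short for their counts to be read against these shares. Of 13 measured translation factors and mRNA-binding proteins, 1 rose and 4 fell with siLRH-1 #1, and 0 were called with siLRH-1 #2 (1 at an unadjusted p under 0.05). MTFMT, which formylates the initiator methionyl-tRNA, fell by 0.61 (adjusted p = 2.38e-06) with siLRH-1 #1 and stood at -0.10 with siLRH-1 #2. The release factor MTRF1 fell by 0.31, the elongation factor GUF1 by 0.30 and MTRES1 by 0.27 with siLRH-1 #1, and LRPPRC, which stabilises mitochondrial mRNA, rose by 0.18.

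Of 23 genes for assembly, rRNA modification and mitoribosomal proteins with other names, 1 rose and 4 fell with siLRH-1 #1. DAP3, a small subunit protein, rose by 0.17, and the helicase DHX30, METTL17 and the GTPases MTG1 and NOA1 fell by 0.18 to 0.24. With siLRH-1 #2 the assembly factor MPV17L2 fell by 0.23 (adjusted p = 0.0425). The list of 10 mitochondrial tRNA synthetases includes GATC, which is not itself a synthetase. Of these 10 genes, AARS2, CARS2 and FARS2 fell with siLRH-1 #1, by 0.26, 0.22 and 0.22. With siLRH-1 #2, 0 were called (3 at an unadjusted p under 0.05).

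Of 7 regulators of mitochondrial transcription and biogenesis, MYC fell with both siRNAs, by 0.33 (adjusted p = 0.00119) and 0.37 (adjusted p = 0.00146). TWNK, the mitochondrial DNA helicase, fell by 0.33 and MTERF1 by 0.22, and GABPA, an ETS factor, rose by 0.21, each called with siLRH-1 #1. After siLRH-1 #2 they gave -0.13, -0.13 and 0.14 without a call, and the siRNAs were not told apart by the direct test (adjusted p = 0.0799 for TWNK, 0.535 for MTERF1 and 0.574 for GABPA). Of 8 genes for import, DNAJC19, a co-chaperone of the import motor, rose with both, by 0.40 (adjusted p = 1.65e-04) and 0.30 (adjusted p = 0.00863). HSPA9, the chaperone of that motor, fell by 0.35 (adjusted p = 2.55e-04) with siLRH-1 #1 and stood at -0.01 with siLRH-1 #2.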

How the data were processed

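According to the methods, GenomeStudio was used on the bead array images, and a probe was dropped when its detection p exceeded 0.05 on every array. The log2 values deposited by the authors had then been quantile-normalized in Partek, and they were used as given for 16381 probes. A second table, of non-normalized signals, was left out, because its 24 columns match no sample label.

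Probes were named from the platform annotation: 9910 had 1 symbol, 4 several and 6467 none. All 108 family probes were found in RefSeq by gene ID, which changed 0 symbols. The members, gene lists and tests were chosen with earlier results of these data known. MRPL27, listed with the central protuberance, was not analysed here.

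A limma 3.58.1 model (R 4.3.3) with 3 group means was fitted to all probes, with Benjamini-Hochberg adjustment over all probes (residual degrees of freedom 9, prior 14.6), and was tested on simulated data. Adjusted p values in the text are from this model. Replicate numbers did not pair the samples: deviations of same-numbered arrays correlated between -0.0409 and 0.0434.

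Every member called in any comparison is named. Those called with both siRNAs and the 3 largest differences between the siRNAs each way are given with every array value, and the 3 brightest and dimmest with group means. MRPL20-AS1, the dimmer probe of MRPS21, MRPL43, MRPS11 and the genes beside members were added after their values were seen. Other settings tried were array weights, an intensity trend, the 2 groups alone, cyclic loess, median centring, a mean log2 of at least 7, 16 added before log2, all probes of a gene, and those whose effect the closing section gives. Figures used matplotlib 3.10.9 under Python 3.11.15. The number of arrays limits the precision.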

Additional observations from a re-analysis of the deposited data

Results flagged for a closer look

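In 5 of the 66 groups of 4 arrays tested among the called members, 1 array lay far from the other 3, where chance alone flags about 1 group in 20. MRPL20 was low on siLRH-1 #2 replicate 1, at 10.35 against 10.46 to 10.48. MRPL43 was low on the same array, at 10.57 against 10.84 to 10.89. MRPL55 and MRPS15 were high on siLUC replicate 4, at 9.06 against 8.95 to 8.97 and at 10.94 against 10.84 to 10.86. MRPS6 was high on siLRH-1 #1 replicate 2, at 11.3 against 11.21 to 11.22.

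The siRNAs differed in 14 members (18.4%) by the limma test of the difference, although both were designed against LRH-1. The share was 18.1% over all genes and 28.2% over genes with a mean log2 of at least 8. Values with siLRH-1 #1 less those with siLRH-1 #2 were 0.3 for MRPL54, 0.28 for MRPS7, 0.27 for MRPS14, 0.26 for MRPL43, 0.25 for MRPL10 and MRPL53, 0.23 for MRPL9 and 0.19 for MRPL14. They were -0.2 for MRPL46, -0.23 for MRPS15, -0.25 for MRPL52 and MRPS6, -0.49 for MRPS18B and -0.68 for MRPL49.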

How the results depend on the processing

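The 36 calls of single members were refitted under up to 28 other settings, and 814 of 1006 values kept their call and 190 lost it. Some settings could rarely lose a call. Among them were a gene's strongest probe, median centring of arrays with like medians, and leaving out an array of the group not compared. The tally is therefore no measure of robustness. MRPL49 and MRPS18B kept their calls in all settings, each with siLRH-1 #1 against siLUC and against siLRH-1 #2. MRPS33 with siLRH-1 #1 turned to -0.03 with the mean of a gene's probes and to -0.37 with its strongest probe. With 1 array left out, the calls ranged from 12 to 17 with siLRH-1 #1, 0 to 6 with siLRH-1 #2, 5 to 15 between the siRNAs and 0 to 3 with both. The share of all genes called then ran from 19.7% to 23.6% with siLRH-1 #1. It ran from 4.43% to 8.67% with siLRH-1 #2 and from 11.6% to 18% between the siRNAs. For calls with both and for the other settings, that share was not computed. A lower count there is thus no result about the family. With the replicate number as a block they were 14, 6, 12 and 3, so no count moved by over 1.5 times, although MRPL14, MRPL46, MRPL48 and MRPS17 each lost a call. With the arrays' own sets as a block the counts were 16, 7, 17 and 3. The set of 7 alone gave 8 with siLRH-1 #1 against siLUC, from fewer arrays. Of siLRH-1 #2 it held only replicate 1. The set of 5 held only siLUC replicate 2 and siLRH-1 #1 replicate 3 of those groups. All other comparisons within a set thus leave a group without replication, and their counts are not given. Both sets alone are among the 28 settings. A threshold of 0.01 gave 8, 0, 7 and 0. Each probe's own variance gave 2 with siLRH-1 #2. With siLRH-1 #1 replicate 2, siLUC replicate 2 and siLRH-1 #2 replicate 1 left out together, chosen after seeing the data, siLRH-1 #2 gave 0, the siRNAs differed in 6 and 0 were called with both. The cause was not tested in any of these. Background correction, quantile normalization, median scaling and a detection filter from the non-normalized signals, and the slide as a block, were planned and not run.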
